A study of Mus musculus with 2 samples.

Results

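Fibrous matrix spots without bone markers are positions on a spatial capture grid whose RNA is rich in fibrillar collagen transcripts and holds no transcript of 7 bone genes. They were chosen on measured values. A spot had to hold at least 100 UMIs (unique molecular identifiers, the counted RNA molecules), at least 3 UMIs of Col1a2 plus Col3a1, at least 1% of its UMIs from that pair, no UMI of Bglap, Ibsp, Sp7, Dmp1, Phex, Ifitm5 or Mepe, and under 1% of UMIs from 12 muscle and keratin genes. Across both libraries 667 of 5745 spots met the rule. They were 333 of 3064 spots in the micropillar library and 334 of 2681 spots in the flat library.

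The study took sections from nude mice, an immunodeficient strain, that carried an implant with a micropillar surface or an implant with a flat surface, and the labels name bone as the tissue of both. The sources used here do not give the number of animals, their age, the implant site or the time after implantation. Each group is 1 library, so no difference below has a replicate check, no test was run, and no p-value is given. A spot is a small region that can hold several cells or part of one, and fewer cells of a type cannot be told apart from less RNA per cell.

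Fibrous connective tissue is built by fibroblasts, which secrete fibrillar collagens type I and type III, fibronectin and small leucine-rich proteoglycans and crosslink the collagen into fibres outside the cell. In healing tissue the collagen III-rich matrix of early granulation tissue is later replaced by matrix richer in collagen I, and macrophages accompany the fibroblasts throughout. Bone also deposits collagen I, but its cells add osteocalcin, encoded by Bglap, and other proteins of mineralised matrix, which the rule uses to keep bone-forming spots out.

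Kept spots came to 3173632 UMIs in the micropillar library and 2263345 UMIs in the flat library. Although the labels name bone, 12 neuron genes summed to 7972 CPM (UMIs per 1000000 summed UMIs of the set) in the spots outside the rule in the micropillar library and to 9482 CPM in those of the flat library. The fibrous matrix spots were shallower than the rest. Their median was 351 UMIs (range 101 to 1613) in the micropillar library and 229 UMIs (range 101 to 938) in the flat library, against 911 and 720 UMIs in all other spots of those libraries. They summed to 140505 UMIs in the micropillar library and 87425 UMIs in the flat library, which is 4.43% and 3.86% of the kept UMIs. The 2 libraries shared 2135 of their 3303 and 3161 barcodes, which name grid positions, and 82 barcodes were fibrous matrix spots in both.

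The share of fibrous matrix spots was 10.9% (exact 95% binomial interval 9.79 to 12.02) in the micropillar library and 12.5% (11.2 to 13.8) in the flat library. All intervals here are 95% and cover counting error only. The share depends on depth and on the rule: with every spot thinned at random to 100 UMIs it was 7.47% in the micropillar library and 9.36% in the flat library, and with at least 500 UMIs per spot it was 4.55% and 1.61%, so the order of the libraries turned. Just inside the collagen minimum, with exactly 3 UMIs of the pair, lay 16 micropillar and 27 flat spots, with a median of 148 and 127 UMIs. Just outside it, with 2 UMIs and at least 1%, lay 13 spots in each library, with a median of 154 and 129 UMIs. At the 1% bound, 22 micropillar and 8 flat members lay just inside, with a median collagen share of 1.10% and 1.16%, and 19 micropillar and 10 flat spots lay just outside, with a median of 0.870% and 0.859%.

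**Figure D1:**
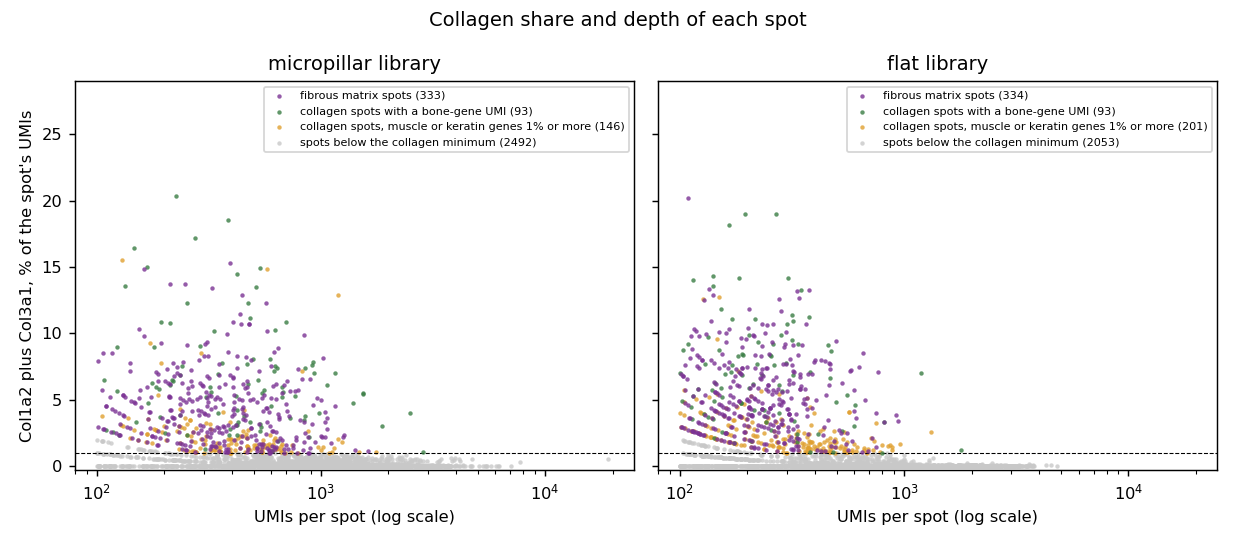
Each point is a spot with at least 100 UMIs, with its UMIs on the x axis (log scale) and the percent of its UMIs from Col1a2 plus Col3a1 on the y axis, for the micropillar library (left) and the flat library (right). Fibrous matrix spots (purple) lie at low to middle depth, with a median collagen share of 3.89% in the micropillar library and 4.69% in the flat library, and overlap in both measures with collagen spots that hold a bone-gene UMI (green).

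The collagen pair chose these spots, so its level is a description. Col1a2 encodes the second chain of collagen I and lies on chr6:4504814-4541544 (mm10, GENCODE M21, plus strand). It had 3537 UMIs, or 25174 CPM, in micropillar fibrous matrix spots and 2541 UMIs, or 29065 CPM, in flat ones. All other spots held 1596 CPM in the micropillar library and 1210 CPM in the flat library. Col3a1, the single chain of collagen III, lies on chr1:45311538-45349706 (plus strand). It had 2139 UMIs, or 15224 CPM, in micropillar spots and 1855 UMIs, or 21218 CPM, in flat spots, against 998 and 691 CPM in the other spots of those libraries. The pair made up a quartile range of 2.20 to 5.71% of a spot's UMIs in the micropillar library and 2.96 to 7.10% in the flat library, with highest values of 15.3% and 20.2%. Most spots held both genes, 315 of 333 in the micropillar library and 316 of 334 in the flat library.

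The label's other markers, Dcn and Lum, encode decorin and lumican, small proteoglycans that bind collagen fibrils and set their spacing. Dcn (chr10:97479609-97518143) had 52 UMIs in 47 micropillar spots and 51 UMIs in 46 flat spots. Lum (chr10:97565128-97572703) had 53 UMIs in 45 micropillar spots and 32 UMIs in 28 flat spots. Both stood far above the other spots of their library, Dcn at 370 against 44.2 CPM (micropillar) and 583 against 36.8 CPM (flat), and Lum at 377 against 32.3 CPM (micropillar) and 366 against 19.8 CPM (flat). In collagen spots that hold a bone-gene UMI, Dcn had 399 CPM in the micropillar library and 452 CPM in the flat library, and Lum had 379 CPM and 527 CPM there. Yet 248 of 333 micropillar spots and 265 of 334 flat spots held no UMI of either, so most spots carry the name through the collagen pair alone. With each spot thinned to 100 UMIs, Dcn was seen in 5.41% of micropillar and 4.49% of flat fibrous matrix spots, against 0.433% and 0% of spots with at least 3 UMIs of Slc17a7, a marker of excitatory neurons. In collagen spots with 1% or more of muscle and keratin UMIs the thinned Dcn share was 6.16% in the micropillar library and 6.97% in the flat library. A count of 0 of 308 flat Slc17a7 spots allows a share of up to 0.974% at 3 counts, and the exact interval reaches 1.19%. The median depths before thinning were 351 and 229 UMIs in fibrous matrix spots and 2360 and 2290.5 UMIs in Slc17a7 spots, and the unthinned Dcn shares were 14.1% and 13.8% against 2.60% and 0.649%.

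The regions just before the starts of 2 genes are shown because Col3a1 is one of the genes that define the spots and Sfrp2 was among the genes with the highest ratio over the other spots. The sequences are from the RefSeq promoter table of build GRCm38.p6, 250 bases up to the base before the start, 5′ to 3′ on the gene's strand, with a TATAAA motif in capitals.
Col3a1, chr1:45311288-45311537, plus strand: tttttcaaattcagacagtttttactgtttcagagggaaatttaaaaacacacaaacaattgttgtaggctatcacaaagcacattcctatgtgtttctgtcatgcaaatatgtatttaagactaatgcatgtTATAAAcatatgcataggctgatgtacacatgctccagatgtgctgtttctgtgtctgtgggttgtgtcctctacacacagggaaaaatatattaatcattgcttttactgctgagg
Sfrp2, chr3:83766071-83766320, plus strand: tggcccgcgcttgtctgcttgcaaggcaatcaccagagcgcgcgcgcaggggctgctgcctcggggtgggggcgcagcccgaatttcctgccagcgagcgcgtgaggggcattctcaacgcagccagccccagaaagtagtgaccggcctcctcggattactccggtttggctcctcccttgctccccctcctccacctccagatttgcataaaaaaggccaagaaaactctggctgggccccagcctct
Each window was searched on both strands for TATAAA (reverse complement TTTATA) and CCAAT (reverse complement ATTGG). The Col3a1 window held 1 TATAAA, on the gene's strand, starting 117 bases before the start, and no CCAAT, and the Sfrp2 window held neither. Over 32851 windows of this length in the table, 12.4% held TATAAA and 33.8% held CCAAT. A match describes letters, not a bound site.

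Measured against all other spots of their library, fibrous matrix spots held higher levels of many connective-tissue and phagocyte genes beside the 2 collagens that chose them. Of 9923 genes with at least 30 UMIs in either set of the micropillar library, 1331 (13.4%) were 2-fold or more higher and 2433 (24.5%) 2-fold or more lower. Of 8659 genes in the flat library, 1417 (16.4%) were 2-fold or more higher and 3117 (36.0%) lower, and with TMM scaling these counts were 950 and 3884. These ratios come from the same spots that the rule divided, so they describe the set and support nothing. The genes outside the rule with at least 30 UMIs in fibrous matrix spots of each library were ranked by the smaller of their 2 ratios, and among the top 20 were 3 further collagens (Col5a1, Col5a3 and Col14a1), the integrin-binding matrix protein fibronectin (Fn1), the proteoglycan biglycan (Bgn) and the collagen and elastin crosslinking enzyme Loxl1. Ccn5, a secreted matricellular protein, led with 38 UMIs in micropillar spots and 30 UMIs in flat spots, which is 270 and 343 CPM against 9.23 and 5.51 CPM in the other spots. Sfrp2, a secreted Wnt-binding protein made by fibroblasts, followed with 147 UMIs in micropillar spots and 100 UMIs in flat spots, or 1046 and 1144 CPM against 53.1 and 35.8 CPM in the other spots. The same 20 held genes of phagocytes: Cd68, a lysosomal glycoprotein of macrophages, Fcer1g, the signalling chain of Fc receptors, Itgb2, the leukocyte integrin beta chain, Cyba, a subunit of the phagocyte oxidase, and the chemokine gene Ccl6. Vim (vimentin), the complement genes C3 and Serping1, the stromal surface protein gene Cd248, Itgbl1, Cpxm1 and Ctsk, the collagen-degrading cathepsin K, made up the rest.

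**Figure D2:**
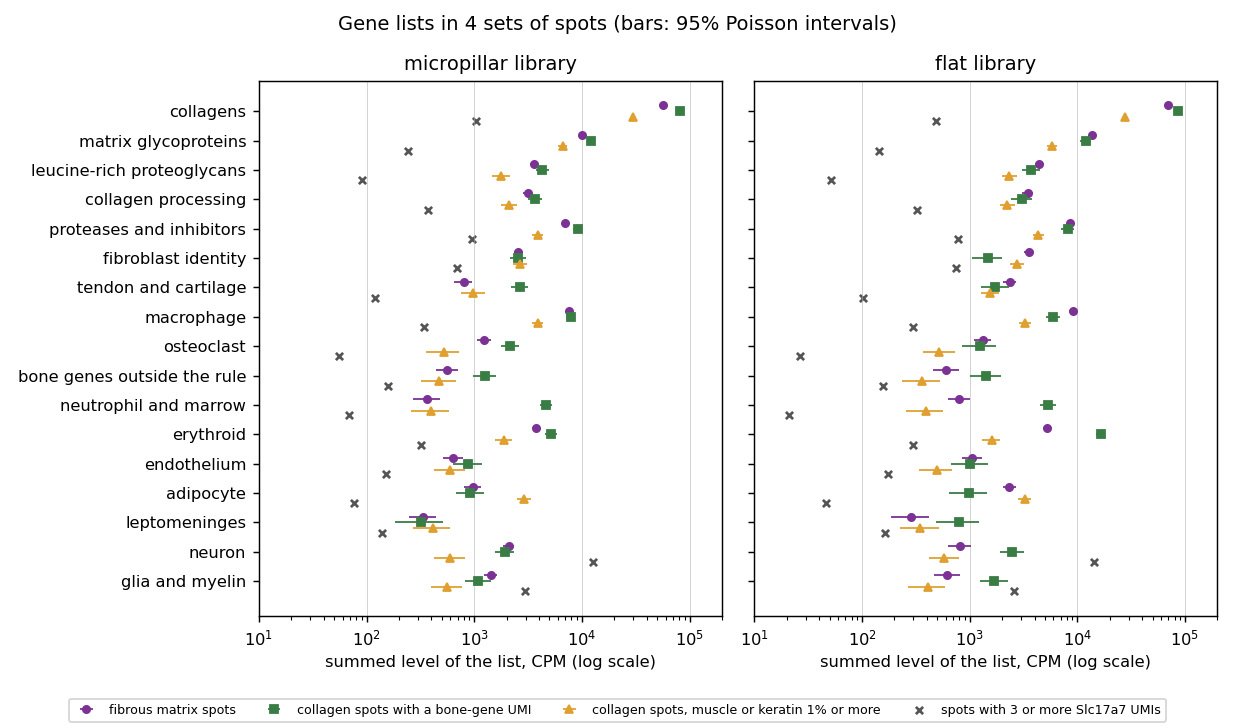
Summed level of each gene list in CPM (log scale, x axis) in fibrous matrix spots (purple), collagen spots with a bone-gene UMI (green), collagen spots with 1% or more of muscle and keratin UMIs (orange) and spots with 3 or more Slc17a7 UMIs (grey), in the micropillar library (left) and the flat library (right), with exact Poisson intervals. The matrix and macrophage lists lie far above the grey crosses in both libraries, while the neutrophil list of fibrous matrix spots lies below that of bone-gene spots, at 363 against 4623 CPM in the micropillar library and 801 against 5350 CPM in the flat library.

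Among structural matrix genes, the 19 listed collagens, Col1a2 and Col3a1 included, summed to 56325 CPM in micropillar fibrous matrix spots and 69934 CPM in flat ones. Beyond the fibrillar pair, Col5a2, a chain of the collagen V that nucleates fibrils, had 209 UMIs (1487 CPM) in micropillar spots and 146 UMIs (1670 CPM) in flat spots, and Col6a2, a chain of the beaded collagen VI network, had 199 UMIs (1416 CPM) and 164 UMIs (1876 CPM) in them. The basement membrane chains Col4a1 and Col4a2 had 83 and 73 UMIs in micropillar spots and 59 and 64 UMIs in flat spots. Of the 12 leucine-rich proteoglycans, 5 had at least 30 UMIs in 1 library, and the UMIs of the list lay mostly in Bgn, with 282 UMIs in 166 micropillar spots and 206 UMIs in 143 flat spots. Of 24 matrix glycoproteins, 13 reached that minimum. Fn1 (chr1:71585520-71653200, minus strand) had 463 UMIs in 203 micropillar spots and 374 UMIs in 189 flat spots. Fbn1, the microfibril protein fibrillin 1, had 156 and 132 UMIs in micropillar and flat spots, Sparc, a collagen-binding protein of bone and fibrous tissue, 164 and 117, and Thbs2, a matricellular thrombospondin, 123 and 105.

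Genes that process or break down collagen were present too. The collagen processing list had 3132 CPM in micropillar spots and 3466 CPM in flat spots, and included Serpinh1, the collagen chaperone HSP47, with 79 and 50 UMIs in micropillar and flat spots. The proteases and their inhibitors had 6996 CPM in micropillar spots and 8602 CPM in flat spots. They included the lysosomal protease Ctsb, the gelatinase Mmp2 and the metalloproteinase inhibitor Timp2, with 256, 155 and 154 UMIs in micropillar spots and 188, 123 and 94 UMIs in flat spots. The collagenase gene Mmp13 had 20 UMIs in 15 micropillar spots and 27 UMIs in 22 flat spots.

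Fibroblast identity genes summed to 362 UMIs, or 2576 CPM, in micropillar spots and 310 UMIs, or 3546 CPM, in flat spots. The other spots of those libraries held 782 and 772 CPM. Collagen spots with 1% or more of muscle and keratin UMIs held 2671 CPM (micropillar) and 2757 CPM (flat), so the list did not mark fibrous matrix spots alone. After thinning, 27.4% and 30.8% of those collagen spots held a UMI of the list, against 21.6% and 30.2% of fibrous matrix spots. Of the 18 fibroblast identity genes with a row, 4 reached 30 UMIs. They included Clec3b, a secreted plasminogen-binding protein, with 82 and 60 UMIs in micropillar and flat spots, and the actin-severing Gsn with 47 and 54. The receptor genes Pdgfra and Pdgfrb had 8 and 27 UMIs in micropillar spots and 7 and 20 in flat spots, and the limb and connective-tissue transcription factor gene Prrx1 had 18 in micropillar spots and 25 in flat spots. The contractile genes Acta2 and Tagln, usual markers of myofibroblasts, had 7 and 1 UMIs in micropillar spots and 7 and 0 in flat spots, and no gene of the myofibroblast and pericyte list reached 30 UMIs. That list still summed to 641 CPM in micropillar and 927 CPM in flat spots, against 221 and 275 CPM in the other spots. Collagen spots with 1% or more of muscle and keratin UMIs held 1145 and 885 CPM of it. In micropillar and flat fibrous matrix spots Rgs5 had 21 and 12 UMIs, Cthrc1 20 and 11, and Cspg4 8 and 18. The 18 tendon and cartilage genes summed to 112 UMIs in micropillar spots and 206 UMIs in flat spots, of which Comp gave 55 and 89 and Thbs4 20 and 52. Others of the list were near 0: in micropillar and flat spots Tnmd had 2 and 3 UMIs, Scx 1 and 6, Acan 0 and 3, and Col2a1 2 and 1. The tendon and cartilage list came to 797 CPM in micropillar and 2356 CPM in flat fibrous matrix spots. Collagen spots with a bone-gene UMI held 2650 CPM of it in the micropillar library and 1733 CPM in the flat library. Those with 1% or more of muscle and keratin UMIs held 977 and 1553 CPM. Markers of leptomeninges, the fibroblast layers that wrap the brain, summed to 47 UMIs, or 334 CPM, in micropillar spots and 25 UMIs, or 286 CPM, in flat spots, against 378 and 421 CPM in the other spots of those libraries.

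UMIs of the macrophage list were widely spread over the fibrous matrix spots. The 14 listed genes summed to 7651 CPM (interval 7200 to 8122) in micropillar fibrous matrix spots and 9059 CPM (8439 to 9713) in flat ones, against 986 and 813 CPM in the other spots. At 100 UMIs per spot, 49.2% of micropillar and 53.6% of flat fibrous matrix spots held a macrophage UMI, against 2.16% and 4.87% of Slc17a7 spots. In the micropillar and flat libraries the share was 47.3% and 39.8% in collagen spots with a bone-gene UMI. It was 31.5% and 24.4% in collagen spots with 1% or more of muscle and keratin UMIs. Lgals3, the lectin galectin 3, had 326 UMIs in 174 micropillar spots and 210 UMIs in 124 flat spots. Ctss, cathepsin S, had 231 and 165 UMIs in micropillar and flat spots. In the same order Cd68 had 118 and 75, Csf1r 89 and 90, C1qa 67 and 44, and Tyrobp 63 and 49. C1qb had 59 and 52, C1qc 56 and 52, Cd14 25 and 20, and Aif1 22 and 19. Other macrophage genes of the list were low or near 0. Mrc1 had 13 and 9 UMIs, Adgre1 5 and 6, Lyz2 1 and 0, and Cd163 0 and 1. Genes of osteoclasts, bone-resorbing cells of the same lineage, had 174 UMIs in micropillar spots and 116 UMIs in flat spots, of which Ctsk gave 74 and 50, and Acp5, tartrate-resistant acid phosphatase, 43 and 24. Erythroid genes had 530 UMIs in micropillar spots and 459 UMIs in flat spots, nearly all of globin genes, whose near-identical copies may share reads.

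**Figure D3:**
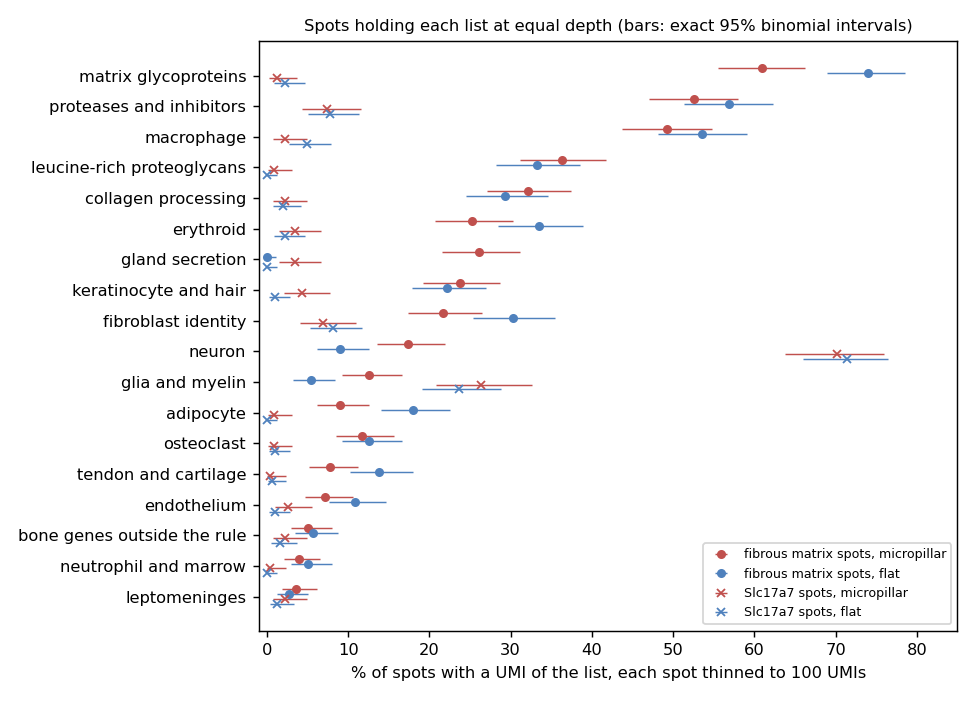
Percent of spots that held at least 1 UMI of each list (x axis) once every spot was thinned to 100 UMIs, in fibrous matrix spots (circles) and in spots with 3 or more Slc17a7 UMIs (crosses) of the micropillar (red) and flat (blue) libraries, with exact binomial intervals. Matrix glycoproteins were seen in 61.0% of micropillar and 74.0% of flat fibrous matrix spots, and gland secretion genes in 26.1% and 0%.

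The nearest sets are the collagen spots that missed the rule through a bone-gene UMI, 93 in each library, and those with 1% or more of muscle and keratin UMIs, 146 in the micropillar library and 201 in the flat library. Bone genes that the rule did not use, such as the transcription factor gene Runx2 and the phosphatase gene Alpl, were present in fibrous matrix spots at 562 CPM (micropillar) and 606 CPM (flat), against 1255 and 1432 CPM in bone-gene spots. The log2 ratio was -1.16 (interval -1.66 to -0.66) in the micropillar library and -1.24 (-1.87 to -0.60) in the flat library. In micropillar and flat fibrous matrix spots Runx2 had 13 and 17 UMIs, Alpl 9 and 6, and Spp1, the secreted phosphoprotein osteopontin that macrophages also make, 36 and 18, so the absence of the 7 rule genes did not mean the absence of all bone-lineage transcripts. Neutrophil and marrow genes, which the rule did not use, stood furthest apart of the 26 lists, with log2 ratios of -3.67 (-4.14 to -3.23) and -2.74 (-3.17 to -2.32) in the micropillar and flat libraries against bone-gene spots. Since a deeper spot is more likely to hold a bone-gene UMI, depth bears on this division: the median was 351 UMIs against 423 in the micropillar library and 229 against 220 in the flat library.

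The balance of the collagen pair differed between these sets. Col3a1 made up 37.7% (36.4 to 39.0) of the pair's UMIs in micropillar fibrous matrix spots and 42.2% (40.7 to 43.7) in flat ones. In collagen spots with a bone-gene UMI it made up 29.5% (27.8 to 31.2) in the micropillar library and 26.5% (24.4 to 28.7) in the flat library, and these intervals lay apart from those of fibrous matrix spots in both libraries. In collagen spots with muscle or keratin UMIs it made up 47.0% (44.4 to 49.6) in the micropillar library and 43.9% (41.3 to 46.5) in the flat library. The rule used the sum of the pair and not its split. Among other lists, the keratin and hair genes were higher in fibrous matrix than in bone-gene spots in both libraries, by 1.33 (micropillar) and 1.69 (flat) on the log2 scale. The rule capped some of these genes, and the same cap held in the bone-gene spots. Macrophage genes did not differ beyond counting error in the micropillar library (log2 ratio -0.04, interval -0.21 to 0.13) and were higher in the flat library (0.61, 0.36 to 0.86). The fibroblast identity list likewise had a log2 ratio of 0.00 (-0.29 to 0.30) in the micropillar library and 1.27 (0.79 to 1.79) in the flat library.

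The fibrous matrix spots were also compared among themselves by collagen content. The division used the value that chose the spots, so the ratios below describe the set. They were divided at the median collagen share into 167 richer and 166 poorer spots in the micropillar library and 167 of each in the flat library, and Col1a2 and Col3a1 were left out of lists and totals. The other collagens were higher in the richer spots by 1.53 (1.40 to 1.66) on the log2 scale in the micropillar library and by 0.94 (0.79 to 1.08) in the flat library. In the micropillar and flat libraries leucine-rich proteoglycans were higher by 1.46 and 0.79, matrix glycoproteins by 1.19 and 0.51, collagen processing genes by 1.01 and 0.56 and macrophage genes by 0.79 and 0.64. The 22 YAP and TAZ targets, genes switched on by the mechanosensitive YAP and TAZ coactivators, were higher by 0.68 (0.34 to 1.02) in the micropillar library and 0.57 (0.19 to 0.95) in the flat library, and the nuclear envelope and lamina genes by 0.47 (0.06 to 0.88) and 0.13 (-0.33 to 0.59). Keratin and hair genes ran the other way, at -2.57 in the micropillar library and -2.47 in the flat library, as did adipocyte genes at -1.11 and -1.81 and glia and myelin genes at -0.98 and -1.62. The keratin list includes Krt5, Krt14, Krt10, Krt25 and Lor, which the rule capped.

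The collagen-poorer spots held more Col3a1 relative to Col1a2. Col3a1 was 35.2% (33.7 to 36.7) of the pair in the richer micropillar spots against 43.9% (41.5 to 46.3) in the poorer ones, and 40.2% (38.5 to 42.0) against 46.9% (44.2 to 49.7) in the flat library. Since the spots were divided on the sum of the pair, counting error in either gene takes part in the division. Richer spots were shallower on average, at 378 against 466 UMIs per spot in the micropillar library and 251 against 272 in the flat library. The tendon and cartilage list was higher in the richer spots in the micropillar library, with a log2 ratio of 2.56 (1.85 to 3.34), and not in the flat library, with 0.04 (-0.37 to 0.45).

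**Figure D4:**
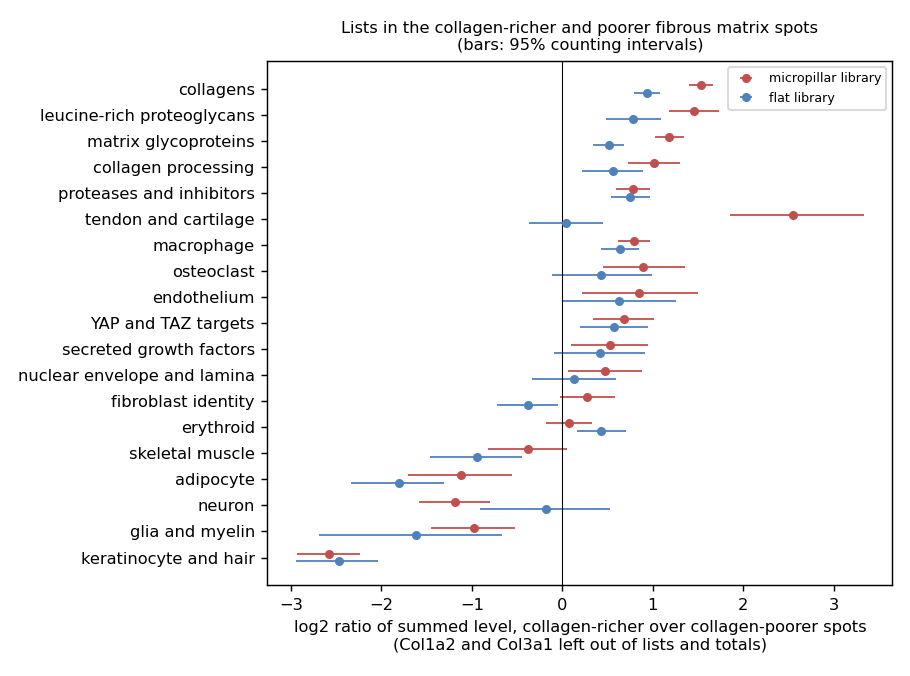
Log2 ratio of each list's summed level in collagen-richer over collagen-poorer fibrous matrix spots (x axis), with Col1a2 and Col3a1 left out, in the micropillar library (red) and the flat library (blue), with counting intervals. The matrix and macrophage lists lie to the right of 0 in both libraries and the keratin, adipocyte and glia lists to the left, while the tendon and cartilage list lies at 2.56 in the micropillar library and 0.04 in the flat library.

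Transcripts were spread unevenly over the spots. The 5 spots richest in Col1a2 held 7.58% of its UMIs in the micropillar library and 5.94% in the flat library, and for Fn1 these shares were 10.8% and 13.1%. Comp, the cartilage oligomeric matrix protein of tendon and cartilage, was more concentrated, with 38.2% of 55 UMIs in 5 of 30 positive micropillar spots and 58.4% of 89 UMIs in 5 of 27 positive flat spots. The neuropeptide gene Avp had 72.7% of its 66 flat UMIs in 5 spots, and the immunoglobulin joining segment Ighj1 had 72.5% of 51. The immunoglobulin gene Igha had 63.5% of 52 flat UMIs in 5 spots, and the desaturase gene Scd1 had 60.0% of 20 micropillar UMIs in 5 spots. Values of Comp, Avp, Ighj1 and Igha thus rest on a handful of spots in the flat library, and that of Scd1 in the micropillar library.

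Between the implants, the structural matrix genes of fibrous matrix spots were slightly lower as a share of UMIs in the micropillar library. On totals without neural-side genes every ratio rose by nearly the same amount, which took matrix medians nearer 0 and Col1a2 past it. Of 883 genes with at least 30 UMIs in fibrous matrix spots of 1 library, 117 (13.3%) were 2-fold or more higher in the micropillar library and 23 (2.60%) 2-fold or more lower, and 410 (46.4%) had a log2 ratio below 0. The minimum of 30 UMIs is a lower CPM in the micropillar library (140505 summed UMIs in these spots) than in the flat library (87425). Genes high in the micropillar library thus enter more easily, which bears on these counts. In fibrous matrix spots with no neuron-gene UMI, 13 of 358 genes were 2-fold or more higher and 9 lower. The ratios of all 883 genes had a median of 0.05 and ran from -0.80 at the 5th to 1.79 at the 95th percentile. Of 14 measured collagens, 13 were below 0 (10 on totals without neural-side genes) and 0 were 2-fold lower, and their median log2 ratio was -0.33. These 14 include Col1a2 and Col3a1, which chose the spots. The minimum of 3 UMIs of the pair asks a larger collagen share of a shallower spot. Flat fibrous matrix spots were shallower, with a median of 229 against 351 UMIs, so the rule bears on the pair's ratios. Its part was not tested. Col1a2 had a log2 ratio of -0.21 (-0.28 to -0.13), Col3a1 one of -0.48 (-0.57 to -0.39) and Col6a3, another collagen VI chain with 130 UMIs in micropillar spots and 116 in flat spots, one of -0.52 (-0.89 to -0.15). Col15a1, a collagen of basement membrane zones, was the exception with 70 UMIs in micropillar spots and 35 in flat spots and a log2 ratio of 0.31 (-0.29 to 0.94).

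The glycoprotein, proteoglycan and protease lists also had medians below 0, while the collagen processing list lay near 0. Of 13 measured matrix glycoproteins 12 were below 0 (9 on totals without neural-side genes), with a median of -0.42. Fn1 stood at 3295 CPM in micropillar spots against 4278 CPM in flat spots (log2 ratio -0.38, -0.58 to -0.18). The microfibril-associated gene Mfap2, with 25 and 44 UMIs in micropillar and flat spots, and the tenascin gene Tnxb, with 30 and 40, were the 2 that were 2-fold lower, at -1.49 (-2.27 to -0.76) and -1.10. Periostin (Postn), a protein of wound and periosteal matrix, had 61 UMIs in micropillar spots and 32 in flat spots and a log2 ratio of 0.25 (-0.39 to 0.91). Of 5 leucine-rich proteoglycans 4 were below 0, with a median of -0.25 that turned to 0.02 in fibrous matrix spots with no neuron-gene UMI: Dcn stood at 370 CPM in micropillar spots against 583 CPM in flat spots, a log2 ratio of -0.66 (-1.24 to -0.07), and Lum at 377 against 366 CPM, a log2 ratio of 0.04 (-0.62 to 0.72). Of 8 proteases and inhibitors 7 were below 0 (5 on totals without neural-side genes), with a median of -0.29. Of 5 collagen processing genes 3 were below 0 (2 with TMM scaling), with a median of -0.02 (0.19 on totals without neural-side genes). Here the crosslinking enzyme gene Lox had 31 UMIs in micropillar spots and 15 in flat spots, and Loxl1 had 54 and 50.

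These ratios depend on what else the totals hold. Neural-side genes are those with a higher CPM in Slc17a7 spots than in fibrous matrix spots, both libraries summed. When they were left out of the totals, the median of all 883 genes moved by 0.22, to a value of 0.27, and 285 (32.3%) had a log2 ratio below 0. A change of totals moves every gene by nearly the same amount. The distance between a list and all genes thus stays nearly the same by construction, and these values do not test it. On those totals Col1a2 stood at 0.01, the collagens had a median of -0.12, the matrix glycoproteins -0.20, the proteases and inhibitors -0.07 and the leucine-rich proteoglycans -0.04. In fibrous matrix spots with no neuron-gene UMI, 194 in the micropillar library and 277 in the flat library, the collagen median was -0.14 and the glycoprotein median -0.32, where all genes had -0.08. Fibrous matrix spots with no gland UMI, 141 in the micropillar library and all 334 in the flat library, gave a collagen median of -0.17 and a glycoprotein median of -0.30, where all genes had -0.23.

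**Figure D5:**
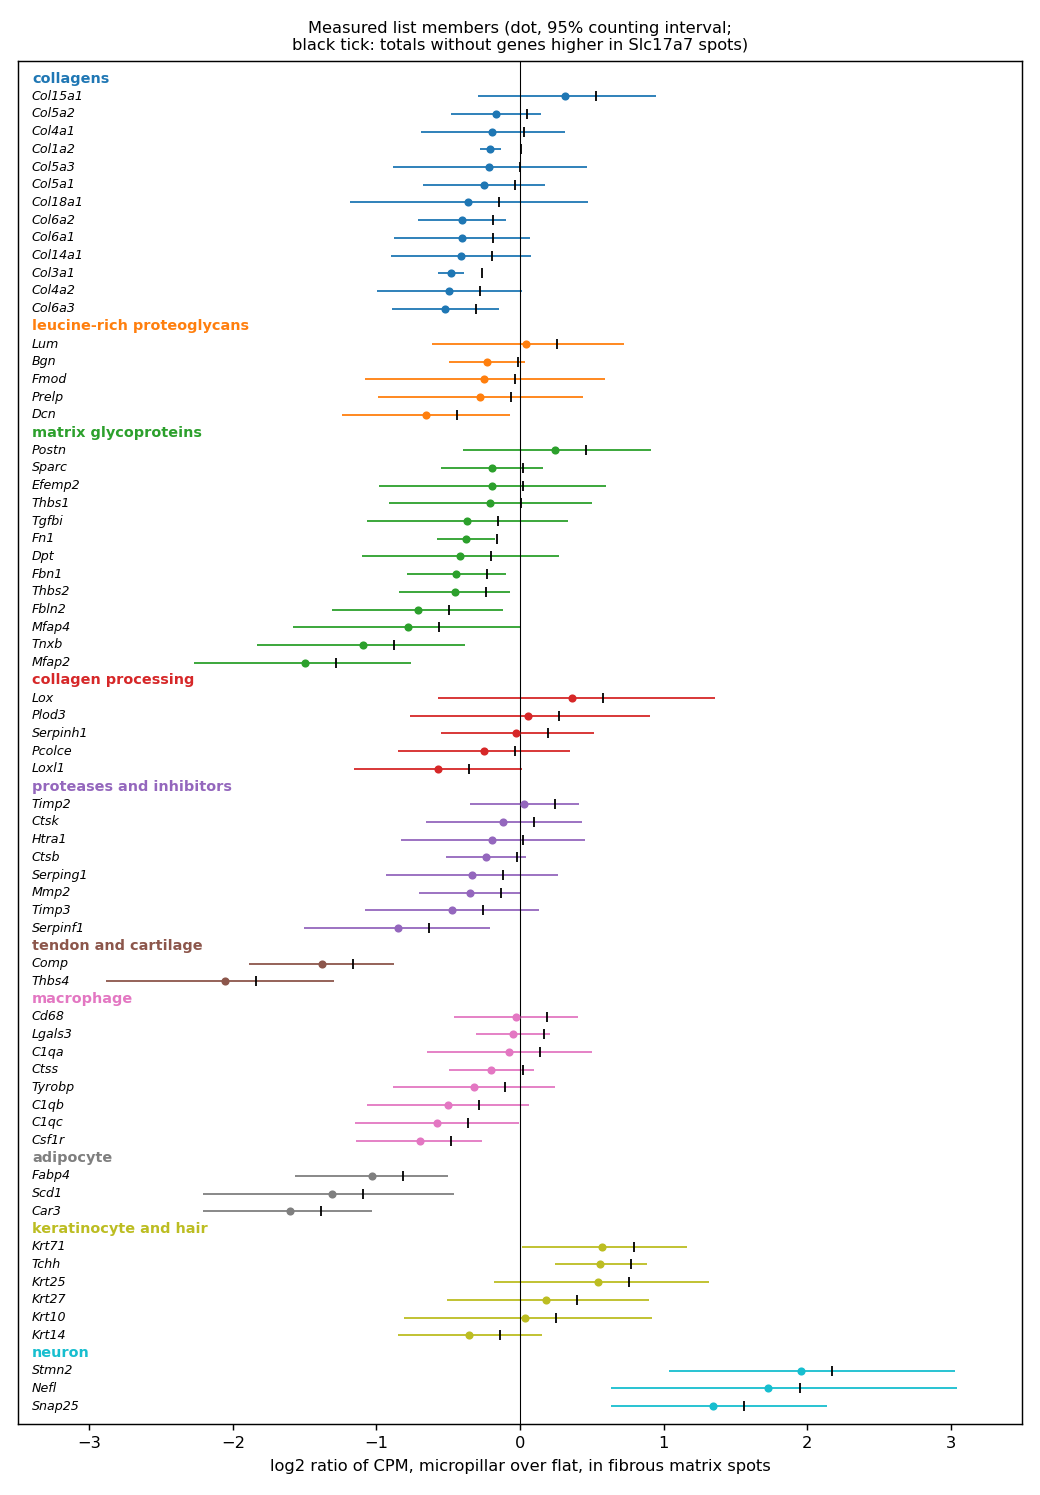
Log2 ratio of CPM, micropillar over flat, in fibrous matrix spots (x axis) for measured members of 10 gene lists, 13 of the 14 measured collagens among them, as dots with counting intervals; black ticks give the ratio on totals without genes that are higher in Slc17a7 spots. Most matrix genes lie between -0.6 and 0.1, the tendon and adipocyte genes lie below -1 and the neuron genes above 1.3. Every black tick lies the same distance to the right of its dot, and those of many matrix genes lie near 0.

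The 12 lowest ratios held 2 tendon and cartilage genes, Comp and Thbs4, and 2 adipocyte genes, Car3 and Scd1. Comp had 55 UMIs, or 391 CPM, in micropillar spots and 89 UMIs, or 1018 CPM, in flat spots, a log2 ratio of -1.38 (-1.89 to -0.88). Thbs4, a thrombospondin of tendon and muscle attachments, had 20 UMIs in 19 micropillar spots and 52 UMIs in 34 flat spots, a log2 ratio of -2.06 (-2.89 to -1.29). Comp turned to 0.30 when spots needed 200 UMIs, while Thbs4 stayed between -2.52 and -0.91 under all 9 alternatives run for it. With bone-gene spots kept, Comp stood at -0.82 and Thbs4 at -1.61. The 3 measured adipocyte genes, the fatty acid carrier Fabp4, the carbonic anhydrase gene Car3 and the desaturase gene Scd1, were all 2-fold or more lower, with 55, 39 and 20 UMIs in micropillar spots against 70, 74 and 31 UMIs in flat spots. The 12 lowest also held the immunoglobulin genes Ighj1 (14 UMIs in micropillar against 51 in flat spots) and Igha (34 against 52). Avp (19 against 66), the matrix gene Abi3bp (23 against 40), Xdh, Apbb1ip and the ferritin pseudogene Ftl1-ps1 were among them too. Ftl1-ps1 may share reads with its parent gene, which was not tested. The immunoglobulin light chain gene Igkc, the 1 measured gene of the B lineage list, lay on the other side, with 30 UMIs in micropillar spots and 10 in flat spots, a log2 ratio of 0.89 (-0.17 to 2.10).

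The highest ratios were of gland and neural genes rather than of matrix genes. Mucl2, a mucin-like secretory gene, had 170 UMIs in 122 micropillar spots and 0 UMIs in flat spots, at least 35.3-fold higher against a floor of 3 counts over the set. The secretoglobin gene Scgb1b2 (94 against 0 UMIs), Gm1553 (56 against 0) and the odorant-binding protein gene Obp1a (37 against 0) were at least 19.5-fold, 11.6-fold and 7.67-fold higher. The 5 gland genes summed to 2591 CPM in micropillar fibrous matrix spots, to 1005 CPM in the other spots of that library to 3984 CPM in its collagen spots with muscle or keratin UMIs, to 2252 CPM in its bone-gene spots and to 479 CPM in its Slc17a7 spots. In the flat library they had 0 UMIs in fibrous matrix spots and 2 UMIs in all other spots, so the difference ran through the whole libraries and not through fibrous matrix spots alone. The neuron list came to 294 UMIs, or 2092 CPM, in micropillar spots and 71 UMIs, or 812 CPM, in flat spots, against 12821 and 14192 CPM in Slc17a7 spots. Snap25, a synaptic fusion protein, had 82 UMIs in micropillar spots and 20 in flat spots. At 100 UMIs per spot 17.4% of micropillar and 8.98% of flat fibrous matrix spots held a neuron-gene UMI, against 70.1% and 71.4% of Slc17a7 spots. The other 8 of the 12 highest were Tagln3, Rab11fip4, Mapk8ip2, Nrsn2, Atp1b2, Nap1l5, Calb2 and Map2, each with 1 to 4 UMIs in flat fibrous matrix spots, and all but Calb2 stood lower in fibrous matrix spots than in the other spots of both libraries. The part of gland, neural, depth and section differences in the matrix ratios was not tested beyond the values given with each.

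Lists close to the question in the study's title, which names nuclear shape and secreted factors, held few measured genes. The 22 YAP and TAZ targets summed to 2128 CPM in micropillar and 2745 CPM in flat fibrous matrix spots, and 3 were measured: the receptor tyrosine kinase gene Axl with 69 and 77 UMIs in micropillar and flat spots (log2 ratio -0.84, -1.33 to -0.36), Fstl1 with 87 and 76 (-0.49, -0.95 to -0.03) and Crim1 with 30 and 9 (1.05, -0.06 to 2.31). The classical targets Ccn1 and Ccn2 had 8 and 5 UMIs in micropillar spots and 10 and 7 in flat spots. Lmna, encoding the lamins A and C of the nuclear lamina, had 97 UMIs in micropillar spots and 81 in flat spots (-0.42, -0.87 to 0.02). Of 29 secreted growth factors 1 was measured, Igf1 with 42 and 36 UMIs in micropillar and flat spots (-0.46, -1.14 to 0.22), while Tgfb1 had 17 and 9 UMIs and Bmp4 3 and 0. All 8 measured macrophage genes were below 0 (5 with TMM scaling, 4 on totals without neural-side genes), with a median of -0.26. They ran from Cd68 with 118 and 75 UMIs in micropillar and flat spots (-0.03, -0.46 to 0.41) to the growth factor receptor gene Csf1r with 89 and 90 UMIs (-0.70, -1.14 to -0.26). Of 6 measured keratin and hair genes 5 were above 0, with a median of 0.36, among them the hair sheath gene Tchh with 282 and 119 UMIs in micropillar and flat spots (0.56, 0.25 to 0.88), of which the 5 richest spots held 35.5% and 31.9%.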

How the data were processed

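Raw UMI counts per gene and spot were deposited by the authors for 2 libraries, 1 per group. The upstream tool is spaceranger 2.0.1 per the file headers and Cell Ranger 7.2.0, with build mm10, per the submitters' processing notes. The 2 sources differ and neither gives the probe set or settings. Images and positions were not used. Of 19465 gene rows, 11 symbols stood on 2 rows, and 19440 identifiers matched GENCODE M21, which gave coordinates.

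UMIs were summed over spots and scaled to CPM. Log2 ratios took a pseudocount of 1 CPM, with exact conditional intervals. Exact Poisson intervals were used for sums and exact binomial (Clopper-Pearson) intervals for shares. Genes with at least 30 UMIs in 1 set were measured, and 2-fold counted as called. Folds against 0 used 3 counts over the set. No doublet caller was run, since spots are not cells. The intervals of log2 ratios were tested on simulated Poisson sums. The simulation held no spread between spots and no choice of spots by the rule, so it covers counting error only. The members and 26 gene lists were chosen with earlier results of these data known; 8 list entries have no row.

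Named were the rule and marker genes, in each list the gene with most UMIs and the highest and lowest ratio, the 20 highest over other spots, and the 12 highest and lowest ratios between libraries with the same sign under TMM and per-spot means. Genes named outside this rule were chosen after their values were seen, and some genes are not reported here. Alternatives covered spot depth, collagen share, bone-gene spots, thinning, pseudocount, gene minimum, scaling (TMM from edgeR 4.0.16, size factors from DESeq2 1.42.0), per-spot means and totals. Spots without neuron or gland UMIs were added after seeing the data. Scripts ran in Python 3.11.15 with numpy 2.4.6, scipy 1.17.1 and pandas 2.3.3, and in R 4.3.3.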

Additional observations from a re-analysis of the deposited data

Results flagged for a closer look

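The troponin C gene Tnnc2 of fast muscle, which the rule does not cap, was flagged because its ratio to the other spots had opposite signs in the 2 libraries. It had 75 UMIs in micropillar fibrous matrix spots and 59 in flat ones. The log2 ratio over the other spots was 0.78 in the micropillar library, where the other spots held 310 CPM, and -0.89 in the flat library, where they held 1249 CPM. The difference between the libraries was not tested.

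The matrix glycoprotein list was flagged for the same reason in the contrast with bone-gene collagen spots. Its log2 ratio was -0.29 (interval -0.42 to -0.15) in the micropillar library and 0.20 (0.02 to 0.38) in the flat library, and the difference was not tested.

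Spots under 100 UMIs were outside every comparison and also held collagen without bone genes. In the micropillar library 13 of 239 such spots met the rest of the rule, and in the flat library 27 of 480 did.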

How the results depend on the processing

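No paired analysis was possible because each group has 1 library. The share of fibrous matrix spots in the micropillar and flat libraries was 9.65% and 9.19% with 200 UMIs per spot, 4.55% and 1.61% with 500, 8.45% and 11.0% with a collagen share of 2%, 13.9% and 15.9% with bone-gene spots kept, and 7.47% and 9.36% after thinning. With 10 UMIs per gene, 2076 micropillar and 2433 flat genes were 2-fold higher than in other spots. Micropillar over flat, the genes 2-fold higher numbered 717 with 10 UMIs per gene, 56 with a collagen share of 2% and 13 (of 358 genes) without neuron UMIs. The genes 2-fold lower numbered 14 with TMM and with DESeq2 factors, 253 with 10 UMIs per gene, 12 with 200 UMIs per spot, 13 on totals without neural-side genes and 9 without neuron UMIs.

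List medians moved to -0.71 for erythroid and 0.44 for YAP and TAZ genes with bone-gene spots kept, to -2.34 for adipocyte and -0.30 for keratin genes without gland UMIs, and to -0.44 for keratin genes at 2% collagen, where Tchh also had -0.44. Collagen medians stayed between -0.36 and -0.12 and glycoprotein medians between -0.46 and -0.20 under all 12 alternatives. Signs turned for Col1a2 on totals without neural-side genes (0.0090), for Comp at 200 UMIs (0.30), and at 500 UMIs for Serpinf1 (0.0091), Gsn (0.18) and Hbb-bs (0.66). At 500 UMIs Comp had 13 micropillar and 0 flat UMIs, so its computed log2 ratio of 7.46 is set by the pseudocount, is no bound and shows no turned sign. Of 783 values for named genes, 717 lay within the counting interval of the main value, which is wide for genes with few UMIs. The causes were not tested. At 500 UMIs 100 micropillar and 24 flat spots remained, so depth limits what can be compared there.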
